A study of Mus musculus with 9 samples.

Results

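Fatty acid oxidation and PPARα target genes were examined in Hepa1-6, a mouse hepatoma cell line, after treatment with 1 of 2 pleuromutilin antibiotics. The set was 9 genes chosen by name, namely Ppara, Cpt1a, Cpt2, Acadm, Hadha, Ehhadh, Plin2, Angptl4 and Pdk4. Each was found once, as a protein-coding gene, among the 56748 genes of the deposited count table, and all 9 passed the filter on low counts that left 14510 genes for testing. RNA sequencing had been done on 9 libraries in 3 groups of 3. The control cells are labelled as untreated, whereas the methods of the study name a vehicle, so whether they received one is not settled. The lefamulin cells received 37 µg/mL lefamulin for 2 days and the tiamulin cells 37 µg/mL tiamulin for 2 days. All 3 groups were grown in DMEM with fetal bovine serum and penicillin-streptomycin. Lefamulin, used in humans, and tiamulin, used in animals, share the pleuromutilin core and differ in the side chain attached to it; both block the bacterial ribosome. The data describe a single line at 1 dose and 1 time. The labels do not state that the 3 libraries of a group came from separate cultures, so p-values measure the spread between these libraries, which may be technical.

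PPARα is a nuclear receptor that binds fatty acids and, paired with RXR, switches on genes for fatty acid uptake and breakdown, most strongly in the fasting liver. Long-chain fatty acids enter mitochondria through the carnitine shuttle (Cpt1a at the outer membrane, Cpt2 at the inner membrane) and are shortened by β-oxidation, in which Acadm catalyses the first step for medium chains and Hadha, the α subunit of the trifunctional protein, the later steps for long chains. Ehhadh carries out the corresponding steps in peroxisomes. Plin2, Angptl4 and Pdk4 are further known PPARα targets, which act in lipid storage, in the inhibition of lipoprotein lipase and in the inactivation of pyruvate dehydrogenase.

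Library totals were 15568887 to 18008105 counts. Within groups, libraries differed by more than sampling noise in all 9 pairs. Tiamulin 2 stood apart, with a χ2 per degree of freedom of 16.3 against tiamulin 1 and 18.6 against tiamulin 3, compared with 2.79 to 6.91 for the other 7 pairs. Its deviation from the group mean rose with the GC content of the gene (Spearman's rho 0.764 over 6210 genes, a value across genes of 1 library), while those of tiamulin 1 and tiamulin 3 fell (-0.658 and -0.689). Such a trend was not particular to the tiamulin libraries, since control 1 (0.604) and control 2 (-0.593), which enter both comparisons with control, deviated with GC content nearly as strongly and in opposite directions. The values were 0.0413 for control 3 and -0.203 to 0.242 for the lefamulin libraries, and deviations within a group are not independent of each other. Fold changes of the members under tiamulin, against control, that tiamulin 2 moved by more than 1.5 times or turned in direction are also given without it. Of 11 hepatocyte and hepatoma markers, 8 passed the filter, among them Alb and Afp, and the summed marker level was 3780 to 4074 CPM (counts scaled to library depth) in control, 3702 to 3890 in lefamulin and 3604 to 4175 in tiamulin libraries. Single markers within this sum moved apart. Afp, α-fetoprotein, was at 929.8 to 1023 CPM in control, 843 to 933 in lefamulin and 541 to 566 in tiamulin libraries, and Alb, albumin, at 459 to 532, 394 to 429.6 and 341 to 349.6 CPM. Krt18, a keratin of simple epithelia, was at 1048 to 1166, 997 to 1050.5 and 1309 to 1647 CPM. Of the 8 tested markers, 4 fell and 1 rose under tiamulin by edgeR, namely Afp (log2 fold change -0.81, adjusted p = 5.45e-07), Alb (-0.50, adjusted p = 7.56e-05), Fgb (-0.42, adjusted p = 0.000284) and Apob (-0.39, adjusted p = 0.00257) down and Krt18 up (0.37, adjusted p = 0.00389). Under lefamulin 1 rose and 1 fell, namely Trf, transferrin, up (0.27, adjusted p = 0.00465; 523 to 573 CPM in control and 661 to 677 in lefamulin libraries) and Alb down (-0.24, adjusted p = 0.0167). Their part in the members' values was not tested. The hepatocyte markers Ttr, Apoa1 and Serpina1b were at or near 0, so the label of a hepatoma line held for some hepatocyte genes and not for others.

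The members spanned more than 2 orders of magnitude in level. Per gene length, in fragments scaled to gene length and library depth (FPKM, mean ± SD, n = 3) of the control cells, Plin2 was highest at 86.6 ± 1.72 and stood above 96.7% of the tested genes. It was followed by Acadm at 18.1 ± 0.596, Cpt2 at 9.22 ± 0.285, Angptl4 at 7.23 ± 0.660, Cpt1a at 7.17 ± 0.438 and Hadha at 5.92 ± 0.332 FPKM. Ehhadh (0.860 ± 0.0266 FPKM), Pdk4 (0.769 ± 0.0636 FPKM) and Ppara itself (0.201 ± 0.114 FPKM) came last, and Ppara stood above only 4.27% of the tested genes. Neighbours in this order did not overlap between libraries, with the exceptions of Angptl4 with Cpt1a and of Ehhadh with Pdk4. The order changed in its middle under treatment. In lefamulin cells Cpt1a (8.43 ± 0.0464 FPKM) stood above Cpt2 (7.21 ± 0.914 FPKM) with no overlap between libraries, the reverse of control cells, whereas in tiamulin cells Cpt2 (8.12 ± 0.821 FPKM) and Cpt1a (7.82 ± 0.257 FPKM) overlapped.

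**Figure D1:**
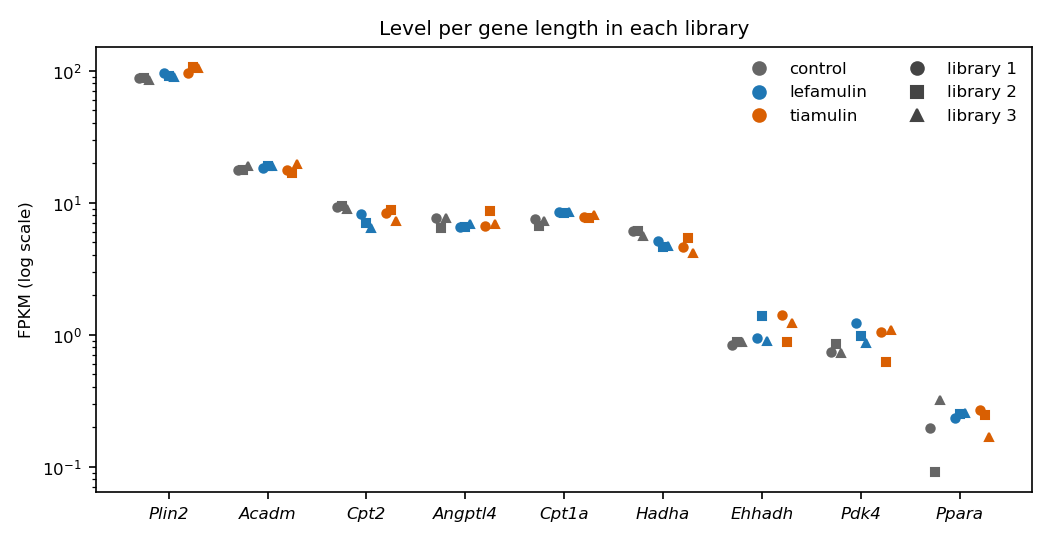
Level per gene length of the 9 members in each of the 9 libraries, in FPKM on a log scale, ordered by the control mean; colour gives the group and symbol the library number. Plin2 lies highest in all 3 groups (control mean 86.6) and Ppara lowest (control mean 0.201).

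Compared with control, 3 of 9 members passed the test under lefamulin and 2 of 9 under tiamulin, and all of these changes were small. Hadha fell under both drugs, Cpt2 fell and Cpt1a rose under lefamulin, and Plin2 rose under tiamulin. A gene is called here when the adjusted p of edgeR's quasi-likelihood test, corrected by the Benjamini-Hochberg method over the 14510 tested genes, is below 0.05. The called members made up 33.3% under lefamulin, where 13.1% of all tested genes were called, and 22.2% under tiamulin, where 16.4% of all tested genes were called. By direction, 1 member rose and 2 fell under lefamulin, against 7.09% of all genes raised and 6.00% lowered, and 1 rose and 1 fell under tiamulin, against 9.08% raised and 7.34% lowered. With so few members these counts are a description. The lefamulin count fell to 0 without control 2, control 3, lefamulin 2 or lefamulin 3, and to 1 without control 1, lefamulin 1 or tiamulin 1. It was also 0 with the replicate number as a block. The labels do not say whether these numbers pair the libraries. The tiamulin count fell to 1 without any single control library, tiamulin 1 or tiamulin 3. No member was a differentially expressed gene (DEG) by the additional threshold of an absolute log2 fold change above 1, which 1.51% of tested genes passed under lefamulin, 1.78% under tiamulin and 0.227% between the drugs. The median log2 fold change of the 9 members was 0.09 under lefamulin and 0.13 under tiamulin, beside medians of all tested genes of -0.0018 and 0.0034. Both comparisons use the same 3 control libraries.

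**Figure D2:**
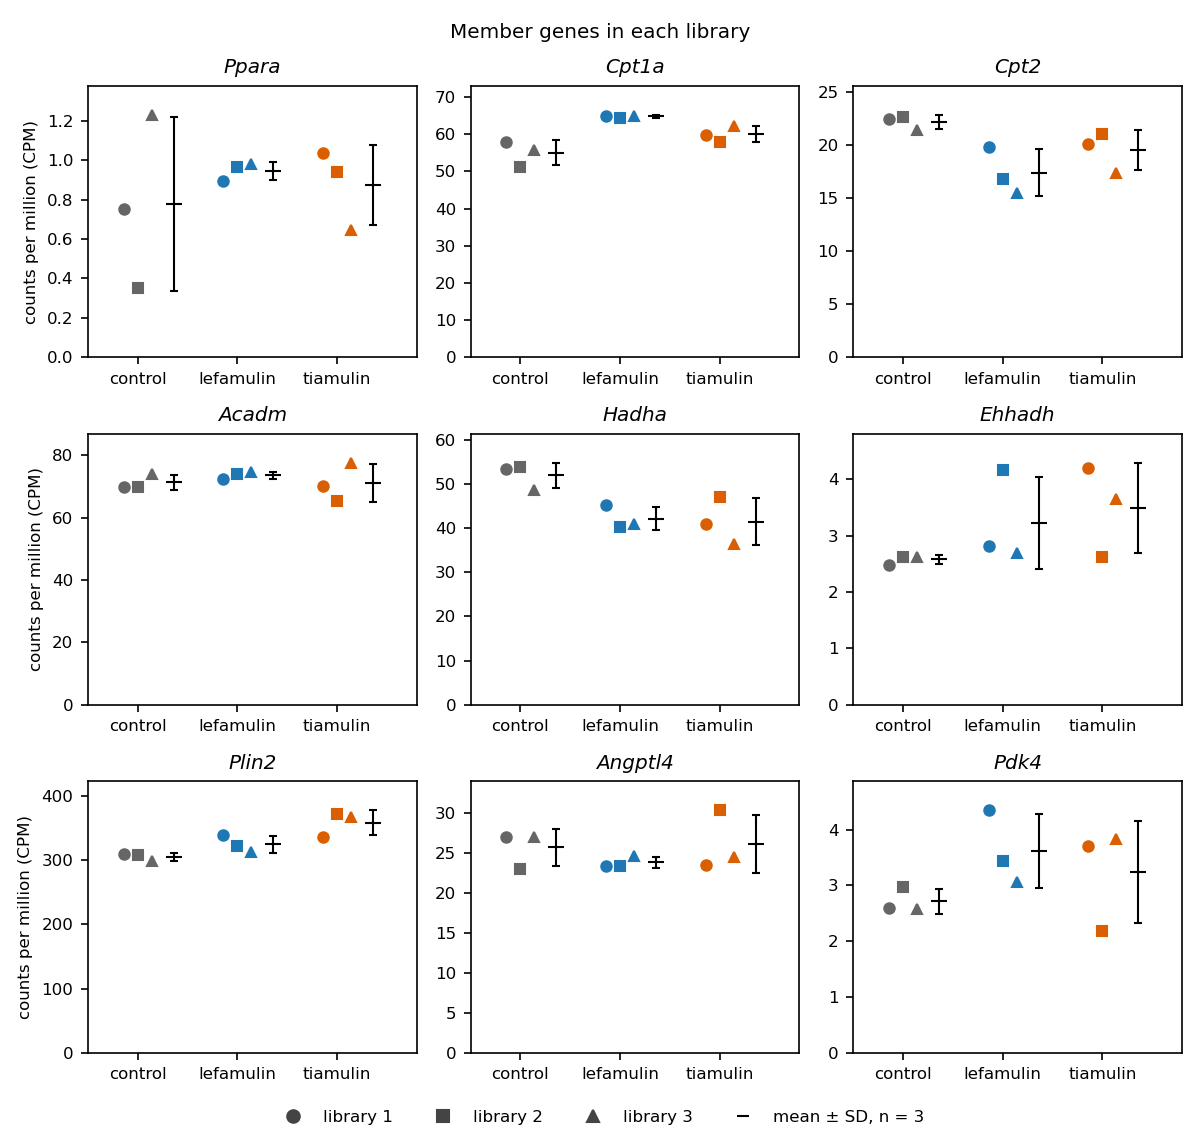
CPM of the 9 members in each library, 1 panel per gene with an axis from 0; points are single libraries and the bar to their right is the mean ± SD (n = 3). Hadha lies lower in every treated library (36.5 to 47.1 CPM) than in every control library (48.6 to 53.8 CPM), and tiamulin 2 is the lowest tiamulin library for Ehhadh and Pdk4.

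The core promoters of the 4 called members are shown first, because these genes share the PPARα pathway by selection and moved in different directions. Sequences are RefSeq promoters on GRCm38.p6, from 250 bases before to 50 bases after the transcription start, written 5′ to 3′ along the gene; 8 of 9 members matched an entry, Angptl4 being the exception. Capitals mark the 6-letter half-site AGGTCA of the PPAR response element, read on either strand, where it appears as TGACCT on the opposite one. Cpt1a lies at chr19:3323051-3323350 on the + strand, Cpt2 at chr4:107923540-107923839 on the - strand, Hadha at chr5:30154931-30155230 on the - strand and Plin2 at chr4:86670010-86670309 on the - strand.
Cpt1a: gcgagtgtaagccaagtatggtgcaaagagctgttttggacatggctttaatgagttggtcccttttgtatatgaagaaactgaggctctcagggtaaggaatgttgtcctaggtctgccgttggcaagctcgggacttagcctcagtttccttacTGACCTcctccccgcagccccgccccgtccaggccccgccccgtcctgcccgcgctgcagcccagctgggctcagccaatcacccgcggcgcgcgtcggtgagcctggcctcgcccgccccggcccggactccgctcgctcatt
Cpt2: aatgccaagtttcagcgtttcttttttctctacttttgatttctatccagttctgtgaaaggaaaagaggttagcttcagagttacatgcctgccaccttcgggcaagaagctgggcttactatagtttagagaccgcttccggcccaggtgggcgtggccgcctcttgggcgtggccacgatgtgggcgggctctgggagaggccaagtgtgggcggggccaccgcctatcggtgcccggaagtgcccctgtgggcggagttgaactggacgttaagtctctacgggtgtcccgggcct
Hadha: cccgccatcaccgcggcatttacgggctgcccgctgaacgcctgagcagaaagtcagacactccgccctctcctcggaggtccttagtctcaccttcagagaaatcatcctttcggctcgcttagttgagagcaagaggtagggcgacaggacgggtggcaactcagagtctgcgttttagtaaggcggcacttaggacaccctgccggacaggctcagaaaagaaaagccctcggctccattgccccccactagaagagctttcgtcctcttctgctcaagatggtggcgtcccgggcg
Plin2: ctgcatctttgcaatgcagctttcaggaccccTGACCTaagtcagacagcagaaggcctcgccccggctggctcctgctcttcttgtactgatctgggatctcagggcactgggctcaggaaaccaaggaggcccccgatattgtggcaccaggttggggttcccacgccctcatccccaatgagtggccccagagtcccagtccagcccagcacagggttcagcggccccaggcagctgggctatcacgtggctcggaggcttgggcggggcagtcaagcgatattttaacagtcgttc
Cpt1a and Plin2 each held 1 half-site on the opposite strand, with its first base at positions -94 and -218 from the start site, and Cpt2 and Hadha held none. With Acadm, which held one at -249, 3 of 8 members held a half-site, against 16.0% of 27025 promoters with 1 window per gene. The complete element, which has 2 such half-sites in the same direction with 1 base between them, was in none of the 8 and in 0.0444% of all promoters. A match of these letters is not evidence of binding, and no match says only that they are not in this window. The Hadha window overlapped that of Hadhb, which runs in the opposite direction, by 228 bases.

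Hadha encodes the subunit with enoyl-CoA hydratase and long-chain hydroxyacyl-CoA dehydrogenase activity and was the only member called under both drugs. In the deposited annotation it lies at chr5:30323302-30360160 on the - strand. Positions in this paragraph and below are as deposited. The labels name build mm10, yet 1 of 9 members has the same start and end in the GENCODE M21 annotation of that build, so the build of these positions is not settled. Hadha was at 53.4, 53.8 and 48.6 CPM in control, at 45.2, 40.4 and 41.0 CPM in lefamulin and at 40.9, 47.1 and 36.5 CPM in tiamulin libraries. None of the 6 treated libraries reached the lowest control. Under lefamulin Hadha fell to 81.2% of control (95% interval 70.8% to 93.2%, adjusted p = 0.0466), and under tiamulin to 79.9% (69.6% to 91.7%, adjusted p = 0.0271). Both values sit close to the threshold. The lefamulin call was lost without any of the 3 control libraries (adjusted p = 0.143, 0.137 and 0.0717), any of the 3 lefamulin libraries (0.0671, 0.172 and 0.149) or tiamulin 1 (0.0574), with a range of 0.00193 to 0.172 over all alternatives. The tiamulin call was lost without control 1 (adjusted p = 0.0886), control 2 (0.101), tiamulin 1 (0.0743) or tiamulin 3 (0.101), and the log2 fold change of -0.32 became -0.43 without tiamulin 2 (adjusted p = 0.000179).

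Hadhb, the partner β subunit with thiolase activity, begins 85 bases beyond the end of Hadha on the + strand. It had 435, 468 and 442 counts in control, 363, 322 and 370 in lefamulin and 297, 294 and 325 in tiamulin libraries, again with all treated libraries below control. It fell under tiamulin (log2 fold change -0.47, 95% interval -0.67 to -0.27, adjusted p = 0.00311, called in all 19 alternatives). Under lefamulin its log2 fold change of -0.24 did not pass the test (adjusted p = 0.106).

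Cpt1a and Cpt2, the outer and inner enzymes of the carnitine shuttle, moved in opposite directions under lefamulin. Cpt1a (chr19:3372334-3435733, + strand) was at 58.0, 51.3 and 55.8 CPM in control, at 65.0, 64.4 and 65.0 CPM in lefamulin and at 59.9, 58.0 and 62.3 CPM in tiamulin libraries. The lefamulin libraries were nearly equal and lay above all others, and the tiamulin libraries lay between, the lowest of them just above the highest control. Cpt1a rose to 118% of control under lefamulin (95% interval 107% to 130.1%, adjusted p = 0.0324); under tiamulin it was at 109% (98.8% to 121%, adjusted p = 0.230). Cpt2 (chr4:107761178-107780807, - strand) was at 22.4, 22.6 and 21.4 CPM in control, at 19.8, 16.7 and 15.5 CPM in lefamulin and at 20.1, 21.1 and 17.4 CPM in tiamulin libraries. All treated libraries were below control, and the lefamulin and tiamulin libraries overlapped. Cpt2 fell to 78.3% of control under lefamulin (66.7% to 92.0%, adjusted p = 0.0455) and was at 88.0% under tiamulin (75.1% to 103%, adjusted p = 0.275). Its tiamulin log2 fold change of -0.18 was -0.11 without tiamulin 3 (adjusted p = 0.588). That of Cpt1a under tiamulin, 0.13, was 0.08 without control 2 (adjusted p = 0.553). The Cpt1a call was lost without control 2 (adjusted p = 0.128), control 3 (0.0960), lefamulin 1 (0.0916), lefamulin 2 (0.0972) or lefamulin 3 (0.0999), with a range of 0.00199 to 0.128 over the alternatives. The Cpt2 call was lost without control 1 (0.121), control 2 (0.118), control 3 (0.0978), lefamulin 2 (0.155), lefamulin 3 (0.180) or tiamulin 1 (0.0568), with a range of 0.00354 to 0.180.

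Acadm, the medium-chain acyl-CoA dehydrogenase, differed least from control among the members. It lies at chr3:153627994-153650269 on the - strand and was at 69.8, 70.0 and 74.1 CPM in control, at 72.4, 73.9 and 74.5 CPM in lefamulin and at 70.0, 65.5 and 77.6 CPM in tiamulin libraries. The groups overlapped. Its level was 103% of control under lefamulin (95% interval 93.1% to 115%) and 99.7% under tiamulin (89.8% to 111%). Without tiamulin 2 the tiamulin log2 fold change of -0.0050 became 0.05 (adjusted p = 0.626).

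Ehhadh, the peroxisomal bifunctional enzyme, had few reads (42 to 69 counts per library). At chr16:21580037-21606557 on the - strand, it was at 2.48, 2.62 and 2.62 CPM in control, at 2.81, 4.16 and 2.70 CPM in lefamulin and at 4.20, 2.62 and 3.65 CPM in tiamulin libraries. Lefamulin 2, tiamulin 1 and tiamulin 3 were high, and tiamulin 2 was level with control. Its log2 fold change was 0.32 under lefamulin (95% interval -0.18 to 0.83, adjusted p = 0.411) and 0.44 under tiamulin (-0.06 to 0.94, adjusted p = 0.228), the largest among the members. The lefamulin value was 0.10 without lefamulin 2 (adjusted p = 0.873). The tiamulin value was 0.29 without tiamulin 1 (adjusted p = 0.522), 0.41 without tiamulin 3 (0.347) and 0.60 without tiamulin 2 (0.0734). Its GC content, 47.0%, was among the lowest of the members. With offsets for GC content and length the value under tiamulin was 0.44 (adjusted p = 0.174). The 3 genes whose profiles over the 9 libraries were closest to that of Ehhadh were Gm12602, Ythdc2 and Primpol, at root mean square distances of 0.0818, 0.141 and 0.142 on the log2 CPM scale, where the median over all genes was 0.343. They were picked as the smallest distances among all named tested genes. Counting error at these low counts was not set against the distances, so a shared profile is not shown. Against control, only Primpol of the 3 was called, under tiamulin (edgeR, adjusted p = 0.0214).

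Plin2, the coat protein of lipid droplets, was the most abundant member and rose under tiamulin. It lies at chr4:86566623-86588297 on the - strand. Plin2 was at 309.6, 308 and 299 CPM in control, at 340.2, 322 and 314 CPM in lefamulin and at 337, 372 and 368 CPM in tiamulin libraries. All treated libraries lay above control, with overlap between the drugs at lefamulin 1 and tiamulin 1. Under tiamulin it rose to 117% of control (95% interval 108% to 128%, adjusted p = 0.0111); under lefamulin it was at 106% (97.9% to 116%, adjusted p = 0.332). The tiamulin call was lost without control 3 (adjusted p = 0.0659, the highest over the alternatives, which began at 0.000174).

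Angptl4, a secreted inhibitor of lipoprotein lipase, was at 27.1, 23.0 and 27.1 CPM in control, at 23.5, 23.4 and 24.7 CPM in lefamulin and at 23.5, 30.4 and 24.5 CPM in tiamulin libraries. It lies at chr17:33992724-34000804 on the - strand. The groups overlapped, and tiamulin 2 was the highest library of all. Its log2 fold change was -0.11 under lefamulin (95% interval -0.34 to 0.12) and 0.02 under tiamulin (-0.20 to 0.25). The lefamulin value was -0.18 without control 2 (adjusted p = 0.361) and -0.07 without control 1 (0.783) or control 3 (0.796). The tiamulin value turned to -0.10 without tiamulin 2 (adjusted p = 0.514) and to -0.05 without control 2 (adjusted p = 0.836), so it has no settled direction.

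Pdk4, the kinase that inactivates pyruvate dehydrogenase when fatty acids are burned, had 35 to 68 counts per library. At chr6:5483351-5496309 on the - strand, it was at 2.60, 2.97 and 2.57 CPM in control, at 4.35, 3.43 and 3.06 CPM in lefamulin and at 3.71, 2.19 and 3.83 CPM in tiamulin libraries. The lefamulin libraries lay above control, and tiamulin 2 was the lowest of all 9. Neither difference passed the test (log2 fold change 0.41, 95% interval -0.09 to 0.92, adjusted p = 0.279 under lefamulin; 0.26, -0.25 to 0.77, adjusted p = 0.509 under tiamulin). The lefamulin value was 0.26 without lefamulin 1 (adjusted p = 0.600). The tiamulin value was 0.47 without tiamulin 2 (adjusted p = 0.153), 0.15 without tiamulin 1 (0.766) and 0.12 without tiamulin 3 (0.810).

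Ppara, the receptor gene, was at a very low RNA level. At chr15:85619184-85687020 on the + strand, it gave 13, 6 and 22 counts in control, 14, 16 and 16 in lefamulin and 17, 15 and 11 in tiamulin libraries. The control libraries spanned the range of both treated groups. The log2 fold change was 0.28 under lefamulin (95% interval -0.63 to 1.19, adjusted p = 0.723) and 0.16 under tiamulin (-0.76 to 1.08, adjusted p = 0.845), so a doubling lay within both intervals. The direction rested on single control libraries: without control 2 the values were -0.07 and -0.18 (adjusted p = 0.943 and 0.830), and without control 3 they were 0.77 and 0.66 (0.369 and 0.432). Under tiamulin the value was 0.02 without tiamulin 1 (0.987), 0.10 without tiamulin 2 (0.912) and 0.34 without tiamulin 3 (0.694). For each of the other 8 members the interval lay inside an absolute log2 fold change of 1 in all 3 comparisons.

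**Figure D3:**
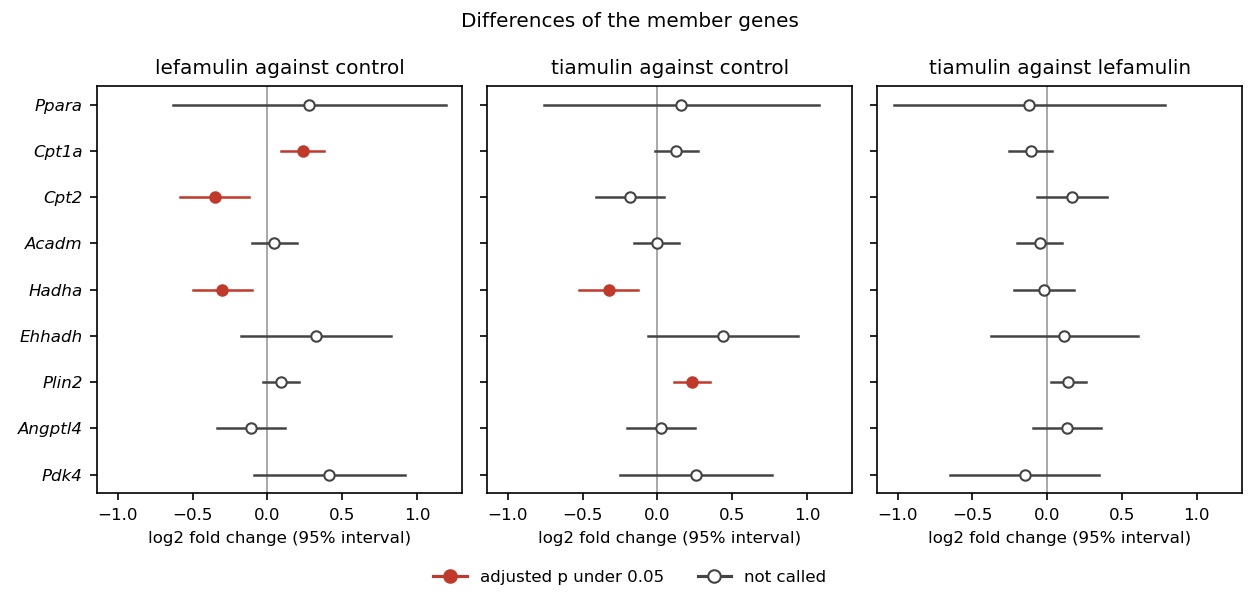
Log2 fold change of the 9 members in the 3 comparisons, with 95% intervals; filled red points are called at an adjusted p below 0.05. Called are Cpt1a, Cpt2 and Hadha under lefamulin, Hadha and Plin2 under tiamulin, and none between the drugs; the Ppara interval is the widest.

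Counted without a test, the libraries of lefamulin and control did not overlap for 6 of 9 members (Cpt1a, Ehhadh, Plin2 and Pdk4 higher, Cpt2 and Hadha lower), where 37.6% of all tested genes did not overlap. For tiamulin and control it was 4 of 9 (Cpt1a and Plin2 higher, Cpt2 and Hadha lower), beside 32.3% of all tested genes.

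The 2 compounds, compared at the same dose and time over the 9 members, gave no called difference by edgeR's quasi-likelihood test, while 4.90% of all tested genes were called (2.85% higher and 2.05% lower with tiamulin). DESeq2 also called 0 of the 8 members for which it gave an adjusted p (all but Ppara), and 1 of 9 had an unadjusted p below 0.05. This was Plin2, higher with tiamulin by 0.14 on the log2 scale (95% interval 0.02 to 0.26, adjusted p = 0.160), and it passed the test with offsets for GC content and length (adjusted p = 0.0196, over a range of 0.0196 to 0.390). For Hadha, which fell under both drugs, the tiamulin level was 98.4% of the lefamulin level (85.6% to 113%). For Cpt1a it was 92.7% (83.9% to 102%, adjusted p = 0.367) and for Cpt2 112% (95.5% to 132%, adjusted p = 0.398), so the opposite shift of the carnitine shuttle enzymes called under lefamulin was not shown to differ from that under tiamulin. The lefamulin and tiamulin libraries did not overlap for 1 of 9 members, Cpt1a, beside 26.5% of all tested genes. For the 8 members other than Ppara the intervals of the difference ran from -0.65 to 0.61 on the log2 scale, and these bounds, set by the low-count genes Pdk4 and Ehhadh, do not show that the compounds act alike.

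The members were then set beside 123 other genes of fatty acid handling in 8 lists, of which 99 were tested. Under lefamulin 16 of the 99 rose and 7 fell (23.2% called, 5 DEGs), under tiamulin 23 rose and 6 fell (29.3%, 4 DEGs), and tiamulin differed from lefamulin for 5 (4 higher and 1 lower, 5.05%). Over all tested genes 13.1% were called under lefamulin (7.09% raised, 6.00% lowered and 1.51% DEGs), 16.4% under tiamulin (9.08%, 7.34% and 1.78%) and 4.90% between the drugs, and the counts of each list below stand beside these shares as a description. The 24 that were not tested had at most 12 counts in any library, and 7 had 0 counts in all 9, which allows up to 3 counts per library (0.168 to 0.192 CPM). Among PPARα targets with a strong liver response, Cyp4a10, Cyp4a14, Fabp1 and Fabp3 were at 0 counts in all 9 libraries. Fgf21, a secreted hormone of the fasting liver, reached at most 5 counts in any library.

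**Figure D4:**
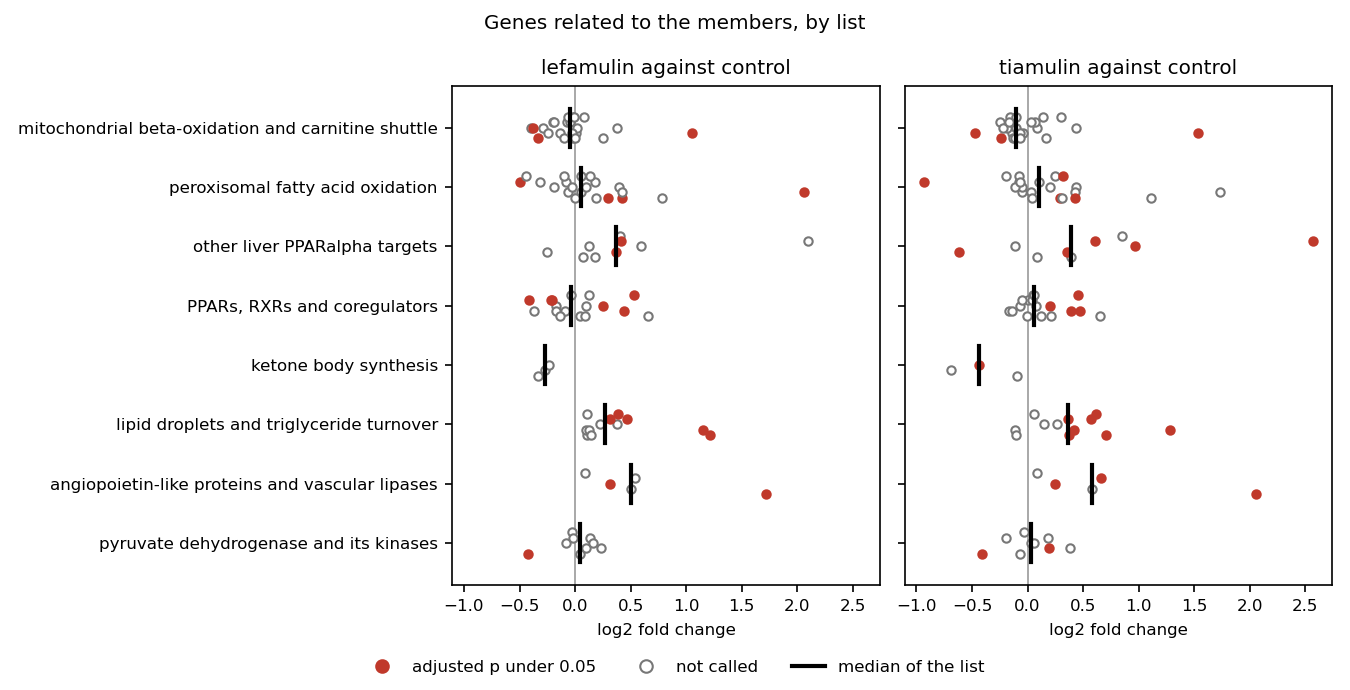
Log2 fold change of the 99 tested genes of 8 related lists under each drug; filled red points are called, open points are not, and the black bar is the median of the list. Most genes of mitochondrial β-oxidation lie near 0 with Acot2 apart at the right (1.05 and 1.54). Of these 23 genes 17 lie below 0 under lefamulin and 15 under tiamulin, beside 7294 and 7163 of all 14510 tested genes. Of the 12 lipid droplet genes all lie above 0 under lefamulin (5 called) and 10 under tiamulin (7 called).

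In the list of mitochondrial β-oxidation and the carnitine shuttle, 23 of 25 genes were tested, and 1 rose and 2 fell under each drug, with medians of -0.04 and -0.10. The 3 of 23 called (13%) stand beside 13.1% and 16.4% of all tested genes, at and below the background share. The gene that rose was Acot2, a mitochondrial acyl-CoA thioesterase, with 96, 77 and 82 counts in control, 164, 166 and 159 in lefamulin and 197, 257 and 245 in tiamulin libraries. It was a DEG under both drugs (log2 fold change 1.05, adjusted p = 0.000278; 1.54, adjusted p = 5.57e-06). Under lefamulin its value ran from 0.797 to 1.15 over the alternatives, so that DEG label did not hold in all. The genes that fell were Acads (-0.33), the short-chain dehydrogenase, and Decr1 (-0.38), needed for unsaturated chains, under lefamulin, and Hadhb (-0.47) and Acsl1 (-0.24), which activates long-chain fatty acids, under tiamulin. The Acads call was lost without control 1, control 3, lefamulin 2 or lefamulin 3 (adjusted p = 0.0629 to 0.0896), the Decr1 call without control 2, control 3 or lefamulin 3 (0.0607 to 0.0926) and the Acsl1 call without control 3 (0.0831). Acot2 was higher with tiamulin than with lefamulin by 0.49 (adjusted p = 0.0486), a call lost without any single library other than tiamulin 1 (up to 0.163).

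In the peroxisomal list, the setting of Ehhadh, 21 of 22 genes were tested and 3 rose and 1 fell under each drug (19.0% called, beside 13.1% and 16.4% of all tested genes). Cat, catalase, rose by 0.29 under lefamulin and 0.43 under tiamulin on the log2 scale (adjusted p = 0.0117 and 0.000678), the former call being lost without control 3 (0.0638) or lefamulin 1 (0.0543). Abcd2, a transporter of very long chains into peroxisomes, fell under both (-0.50, adjusted p = 0.0185; -0.93, adjusted p = 0.000233), the former call being lost without control 3 (0.106), lefamulin 2 (0.0885) or lefamulin 3 (0.0748). Further calls were Decr2 under tiamulin (0.32, adjusted p = 0.0224), lost without control 1 (0.0562), control 2 (0.0957) or control 3 (0.0527), and Acox2 under lefamulin (2.06, 95% interval 0.71 to 3.51), which rested on 4, 3 and 1 counts in control against 10, 5 and 17 and lost its call without any of the 3 control libraries, lefamulin 1, lefamulin 3, tiamulin 1 or tiamulin 3 (adjusted p up to 0.207).

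Of 18 other known liver PPARα targets, 9 were tested. Of these, 2 rose under lefamulin and 4 rose and 1 fell under tiamulin, with medians of 0.37 and 0.39 (22.2% and 55.6% called, beside 13.1% and 16.4%). Lpin2, a phosphatidate phosphatase, rose by 0.41 and 0.61 (adjusted p = 0.000154 and 3.54e-06), and Aldh3a2, a fatty aldehyde dehydrogenase, by 0.37 and 0.36 (adjusted p = 0.00125 and 0.00104). Both genes were called in all 19 alternatives under both drugs. Under tiamulin Cidec, a lipid droplet protein, rose by 0.97 (adjusted p = 0.00451) and Vnn1, a pantetheinase, fell by 0.62 (adjusted p = 0.00105). Cidea rose by 2.57 (95% interval 1.15 to 4.11, adjusted p = 0.0174) from 1, 6 and 0 counts in control to 17, 10 and 14, a call lost without control 1 (0.0748), control 3 (0.0711) or tiamulin 1 (0.0615).

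In the list of PPARs, RXRs and coregulators, the relatives and partners of Ppara, 17 of 18 genes were tested, and 3 rose and 3 fell under lefamulin and 4 rose under tiamulin (35.3% and 23.5% called, beside 13.1% and 16.4%). Ppargc1a, the coactivator PGC-1α, rose by 0.53 under lefamulin (adjusted p = 0.00491) and by 0.45 under tiamulin (adjusted p = 0.0107), and both calls held in all 19 alternatives. Pparg rose by 0.44 and 0.39 (adjusted p = 0.0249 and 0.0372) and Esrra by 0.25 and 0.21 (adjusted p = 0.0149 and 0.0343). The lefamulin calls of both were lost without control 2, control 3, lefamulin 1 or lefamulin 2 (up to 0.109), the tiamulin call of Pparg without any library other than control 1 and lefamulin 3 (up to 0.139), and that of Esrra without any library other than lefamulin 1 and tiamulin 2 (up to 0.122). Lpin1, a coactivator of PPARα as well as a phosphatase, rose by 0.48 under tiamulin (adjusted p = 0.000715), had a log2 fold change of -0.09 under lefamulin (adjusted p = 0.477), and was higher with tiamulin than with lefamulin by 0.57 (adjusted p = 0.00107, called in all 19 alternatives). Rxrb, a partner of the PPARs, fell by 0.42 under lefamulin (adjusted p = 0.00965, lost without control 3 at 0.0591 or lefamulin 3 at 0.0515) and was higher by 0.42 with tiamulin than with lefamulin (adjusted p = 0.0227, lost without any 1 of the 3 lefamulin libraries, up to 0.113). Hnf4a (-0.21, adjusted p = 0.0374) and Crebbp (-0.21, adjusted p = 0.0370) also fell under lefamulin, each with the call lost without any 1 control or lefamulin library (up to 0.134 and 0.131), and Crebbp was higher with tiamulin than with lefamulin by 0.25 (adjusted p = 0.0338), a call lost without control 2, control 3, tiamulin 1 or any lefamulin library (up to 0.136). With offsets for GC content and length both Crebbp calls were lost, at -0.14 under lefamulin (adjusted p = 0.0641) and 0.14 between the drugs (adjusted p = 0.0842).

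Around Plin2, the list of lipid droplets and triglyceride turnover had 12 of 18 genes tested, of which 5 rose under lefamulin and 7 under tiamulin, with medians of 0.27 and 0.37 and none lowered. These are 41.7% and 58.3% of the 12, beside 7.09% and 9.08% of all tested genes raised. The 7 genes not called under lefamulin were above 0, whereas under tiamulin 2 of the 5 not called were below 0, the lowest at -0.12. Dgat2, which makes triglyceride, rose from 44, 48 and 53 counts in control to 83, 107 and 122 in lefamulin and 80, 68 and 75 in tiamulin libraries (log2 fold change 1.21, adjusted p = 0.000421; 0.70, adjusted p = 0.0161), the latter call being lost without control 1 (0.0615) or tiamulin 1 (0.0589). Soat2, which esterifies cholesterol, was a DEG under both drugs (1.15, adjusted p = 0.00166; 1.28, adjusted p = 0.000505). Over the alternatives these values ran from 0.703 to 1.27 and from 0.798 to 1.40, so neither DEG label held in all. The Dgat2 value under lefamulin ran from 0.691 to 1.33. Hilpda, an inhibitor of adipose triglyceride lipase, rose by 0.31 and 0.36 (adjusted p = 0.00154 and 0.000340). The further calls under both drugs were Abhd5 (0.46 and 0.57), the activator of that lipase, and G0s2 (0.38 and 0.62), another inhibitor, of which the G0s2 call under lefamulin was lost without control 1, control 3 or any lefamulin library (up to 0.119). Under tiamulin Pnpla2 (0.42), the lipase itself, and Plin3 (0.37) rose as well, the Pnpla2 call being lost without control 3 (0.0577). Fitm2 was lower with tiamulin than with lefamulin (-0.24, adjusted p = 0.0489), a call lost without any library other than tiamulin 2 (up to 0.197). The adipocyte markers Lep and Cfd were at 0 in all libraries and Adipoq had at most 2 counts, while Fabp4 carried the summed level of the 4 adipocyte markers, 5.47 to 8.55 CPM in control, 10.5 to 13.4 in lefamulin and 11.4 to 14.8 in tiamulin libraries; its part in these results was not tested.

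In the list of Angptl4, the other angiopoietin-like proteins and the vascular lipases, 5 of 8 genes were tested, and 2 rose under lefamulin and 3 under tiamulin, beside 7.09% and 9.08% of all tested genes raised. Angptl6 was a DEG under both drugs, with 26, 30 and 30 counts in control, 77, 103 and 84 in lefamulin and 113, 130 and 95 in tiamulin libraries (log2 fold change 1.72, adjusted p = 7.00e-05; 2.06, adjusted p = 8.45e-06). Lpl, the lipase that Angptl4 inhibits, rose by 0.31 under lefamulin (adjusted p = 0.0109, lost without lefamulin 3 at 0.0656) and by 0.25 under tiamulin (adjusted p = 0.0326, lost without any control library, tiamulin 1 or tiamulin 3, up to 0.124). Lipg, endothelial lipase, rose by 0.66 under tiamulin (adjusted p = 0.0177), a call lost without control 1 (0.0595), control 2 (0.0668) or tiamulin 2 (0.0585). Of the endothelial markers, Cdh5, Kdr and Tek were too low to test; the summed level of the 4, carried by Pecam1, was 1.27 to 1.73 CPM in control, 2.57 to 4.03 in lefamulin and 3.04 to 4.50 in tiamulin libraries, and its part in the lipase values was not tested.

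Among pyruvate dehydrogenase and its kinases, the relatives of Pdk4, 9 of 10 genes were tested and 1 fell under lefamulin and 1 rose and 1 fell under tiamulin (11.1% and 22.2% called, beside 13.1% and 16.4%). Pdk1, the kinase most abundant here, fell under both drugs, from 1468, 1495 and 1625 counts in control to 977, 1172 and 1022 in lefamulin and 1094, 1069 and 1085 in tiamulin libraries (log2 fold change -0.42, adjusted p = 0.000788; -0.41, adjusted p = 0.000710; called in all 19 alternatives). Dlat, the E2 subunit of the complex, rose by 0.19 under tiamulin (adjusted p = 0.0384), a call lost without any single library other than lefamulin 1 and tiamulin 2 (up to 0.150). Of the ketone body enzymes, 3 of 4 were tested, and Acat1, the mitochondrial thiolase, fell under tiamulin (-0.44, adjusted p = 0.0127), a call lost without control 2 (0.0575); 0 of 3 were called under lefamulin by edgeR and 0 by DESeq2, and 2 of 3 had an unadjusted p below 0.05 (1 was called without tiamulin 2).

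The summed levels of the immune and of the fibroblast and stellate markers did not overlap between control and treated libraries. The immune markers Cd3e and Adgre1 were at 0 in all libraries, and the summed level of the 6 immune markers was 8.38 to 9.20 CPM in control, 11.5 to 18.0 in lefamulin and 15.3 to 21.1 in tiamulin libraries. Most of that sum was Cd68, a lysosomal protein of macrophages, at 8.35 ± 0.603, 13.1 ± 2.83 and 17.0 ± 2.75 CPM (mean ± SD, n = 3), which rose under both drugs (log2 fold change 0.65, adjusted p = 0.0183; 1.02, adjusted p = 0.000586, edgeR). Ptprc, the leukocyte antigen CD45, rose from at most 5 counts per control library to 9 to 16 in treated libraries (2.45, adjusted p = 0.0168; 2.12, adjusted p = 0.0336, edgeR), and Lyz2 did not pass the test (1.13, adjusted p = 0.134; 0.89, adjusted p = 0.235). The fibroblast and stellate list, carried by Dcn, summed to 1508 to 1594, 1148 to 1201 and 1063 to 1156 CPM. The other tested markers of that list did not follow Dcn under both drugs. Pdgfra was at 25.0 to 29.6 CPM in control, 18.7 to 21.9 in lefamulin and 28.8 to 31.8 in tiamulin libraries, overlapping control under tiamulin, and Col1a1 was at 0.175 to 0.614, 0.429 to 0.767 and 0.353 to 0.669 CPM. The untested Col1a2, Pdgfrb and Lrat had at most 2 counts in any library. The part of these marker lists in the members' values was not tested. In these bulk libraries of 1 cell line, fewer cells of a type and less RNA per cell cannot be told apart.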

How the data were processed

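The authors sequenced total RNA of Hepa1-6 cells and, per the labels, used fastp, HISAT2 2.0.5 and featureCounts 1.5.0-p3 with build mm10. The deposited gene counts are whole numbers that were not normalized, and the deposited FPKM values were scaled by the authors for gene length and depth. The strand setting of the counting is not given in the sources used here, so reads of overlapping antisense genes cannot be told apart. The members and the 8 gene lists were chosen with earlier results of these data known.

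Counts were tested with edgeR 4.0.16 (R 4.3.3): filterByExpr, TMM scaling and 1 quasi-likelihood fit over all 9 libraries, with Benjamini-Hochberg adjustment over 14510 genes. CPM values use TMM-scaled library sizes. Percentages of control and 95% intervals come from the fitted coefficients. The scripts were tested on simulated data. Named list genes were DEGs in any comparison and the up to 3 called genes with the smallest adjusted p per list. Acads, Decr1, Decr2, Cidec, Pparg, Esrra, Hnf4a, Crebbp, Plin3, Pnpla2, Abhd5, G0s2, Fitm2, Fgf21, Cyp4a10, Cyp4a14, Fabp1, Fabp3 and the markers Alb, Afp, Apob, Fgb, Trf, Krt18, Cd68, Ptprc, Lyz2, Pecam1, Pdgfra and Col1a1 fall outside this rule and were named after their values were seen. Some genes of the lists are counted but not reported here by name. The profile closest to a member was searched for Ehhadh, which had the largest fold change.

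Alternatives were DESeq2 1.42.0, limma 3.58.1 on log2(FPKM + 1) and log2(FPKM + 0.1), other size factors, no filter, a minimum of 10 counts in every library, spline offsets for GC content and length (GC known for 98.2% of tested genes), a replicate block, each pair of groups alone, and each library left out in turn. Leaving out 1 library leaves 2 in its group. At these depths a count of 0 allows up to 3 counts, and such floors cover counting error only.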

Additional observations from a re-analysis of the deposited data

How the results depend on the processing

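No member or named list gene changed direction with a call under any of the 19 alternatives. Of 503 recomputed member values (Ppara fell below the filters of 3 alternatives and had no DESeq2 value between the drugs), 467 kept their side of the threshold, 34 lost the call and 2 gained it. Of 456 recomputed list counts, 104 moved by more than 1.5 times; the mitochondrial list ranged from 1 to 8 calls under lefamulin and from 2 to 8 under tiamulin, and the lipid droplet list from 4 to 6 and from 6 to 7. Besides left-out libraries, other settings ended calls near the threshold: under lefamulin those of Acox2, Hnf4a and Crebbp (block), Hnf4a, Abcd2 and Crebbp (limma) and Crebbp (no filter, offsets); under tiamulin those of Dlat, Decr2 and Esrra (no filter, block, 2 groups alone), Pparg (block, 2 groups alone, DESeq2), Lpl (2 groups alone, limma) and Lipg (limma); and between the drugs those of Acot2, Rxrb, Crebbp and Fitm2 (block, 2 groups alone, limma), Fitm2 (no filter, other size factors) and Crebbp (offsets).

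Under lefamulin the 3 called members became 1 with limma at a pseudocount of 1 and 1 at 0.1, and 0 to 3 when single libraries were left out. Under tiamulin the 2 called members became 1 with the 2 groups alone, 1 with limma at either pseudocount, and 1 to 2 when single libraries were left out. Hadha lost its tiamulin call there (adjusted p = 0.0639 in the 2 groups alone, 0.0606 and 0.0611 with limma), and Cpt2 (0.0556 and 0.0557) and Hadha (0.0918 and 0.0941) lost their lefamulin calls with limma. Without the filter on low counts Cpt1a lost its lefamulin call (0.0539). Between the drugs, 1 member (Plin2) was called with offsets for GC content and length, with or without the block (1 each), and 0 otherwise.

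Over all genes, the 1900 lefamulin calls became 3438 with the offsets, 3116 with offsets and block, 3510 with the 2 groups alone, and 993 to 3708 without single libraries. The 2383 tiamulin calls became 3894, 3590 with offsets and block, and 1462 to 3433 without single libraries. The 711 calls between the drugs became 1271 without the filter, 1834 with the offsets, 1566 with offsets and block, 280 with the 2 groups alone, 1073 with DESeq2, 443 and 444 with limma, and 204 to 1309 without single libraries. The cause was not tested.

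The labels do not say whether the sample numbers pair the libraries. Correlations of same-numbered deviations ran from -0.642 to 0.111, and 5 of 18 searches found the own number best. In some libraries these deviations followed GC content (Spearman's rho 0.604 in control 1 and 0.764 in tiamulin 2), so they cannot decide the pairing. With the replicate block, 0 members were called under lefamulin, 2 under tiamulin and 0 between the drugs, and over all genes 1304, 1811 and 263. Depth limits Ppara, Ehhadh and Pdk4, whose counts lay between 6 and 69.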
